A study of Arabidopsis thaliana with 18 samples.

Results

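Gibberellin is a growth hormone that is made from a diterpene precursor, inactivated by oxidation and sensed by soluble receptors. GA20OX enzymes oxidise its precursors, GA3OX enzymes make the bioactive forms in the last step, and GA2OX enzymes inactivate bioactive forms or their precursors. Bound to the hormone, the GID1 receptors capture DELLA proteins, which restrain growth, and mark them for degradation. In the Arabidopsis root, gibberellin is known to promote cell division in the meristem and cell elongation above it. The genes described here are 10 of the 22093 loci of the count table, 3 inactivating oxidases (GA2OX2, GA2OX6 and GA2OX8), 5 oxidases of synthesis (GA20OX1, GA20OX2, GA20OX3, GA3OX1 and GA3OX2) and 2 receptors (GID1A and GID1B). They were chosen by name, with the levels and differences in these libraries already known, and all 10 have a row. Levels are therefore given as descriptions, and the tests across all genes support nothing beyond the values they stand beside.

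The series concerns auxin sources in root regeneration. Reads were counted in 18 libraries of Arabidopsis thaliana root tips from seedlings of 7 days, made with a kit that reads the 3′ ends of transcripts. L-kynurenine (L-Kyn), which blocks the making of auxin from tryptophan, was given at 100 µM, and cut tips were severed at 120 µm from the quiescent centre (QC), on the shoot side of these organising cells of the root stem cell niche. The groups were L-Kyn cut tips at 3 h (2 libraries) and 6 h (3), L-Kyn uncut tips at 3 h (3) and 6 h (2), mock cut tips at 3 h (3) and 6 h (2) and mock uncut tips (3, with no hour in the labels). No label names a genotype, says whether L-Kyn came before or after the cut, or ties replicates to separate cultures, so p-values measure the spread between libraries, which may be technical. Without an hour for mock uncut tips, elapsed time cannot be told apart from cutting or from L-Kyn against them.

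The libraries held 1280947 to 4839810 reads on genes. A floor of 3 reads is worth 0.617 to 2.28 CPM, the unit of all levels here, which scales a gene's reads by the library's reads on genes and its TMM factor. Floors and counting intervals cover counting error only. Markers of the root tip were present in intact tips: 4 root cap genes summed to 44.1 to 264 CPM and 5 stem cell niche genes to 36.6 to 60.1 CPM in all uncut libraries. The niche sum did not set mock cut tips at 3 h apart, where it was 36.1 to 56.0 CPM. The root cap sum was 3.01 to 12.6 CPM in cut tips, except for 159 CPM in L-Kyn cut 3 h replicate 2, which thus goes against its label and is given by its own values. L-Kyn uncut 6 h replicate 1, titled uncut but called cut in another label, had 188 CPM and was kept as uncut. By their place in the table, not by any label, the libraries form set A, with every 6 h library and mock uncut replicates 1 and 2, and set B, with every 3 h library and mock uncut replicate 3. The summed level of 7 green tissue genes was 75.5 to 508 CPM in set A and 6.08 to 18.1 CPM in set B. A set-matched fit adds the set as a covariate and drops L-Kyn cut 3 h replicate 2. In that fit, and within set B, mock uncut replicate 3 is the only control of every 3 h group, so that such a value rests on 1 mock uncut library.

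Of the 10 genes, 6 passed edgeR's filter on low counts (GA2OX2, GA3OX1, GA20OX2, GA20OX3, GID1A and GID1B), which a gene can pass through the libraries where it is high. None of the 6 was called in any of 8 comparisons by edgeR's quasi-likelihood test in the fit of all 18 libraries, at an adjusted p of 0.05. The share of all 16354 genes called there was 9.89% for mock cut tips at 3 h against mock uncut tips, 0.63% for mock cut tips at 6 h against 3 h, 0.605% for L-Kyn cut against L-Kyn uncut tips at 6 h, and 0% in the other 5. At an unadjusted p under 0.05 the count of these 6 genes was 1 for mock cut 3 h against mock uncut tips, a mark that 27.3% of all genes passed there, 0 for mock cut 6 h against mock uncut tips (9.75% of all genes) and 2 for mock cut 6 h against 3 h tips (12.3%). It was 1 and 2 for L-Kyn uncut 3 h and 6 h tips against mock uncut tips (9.05% and 8.52% of all genes) and 2 for L-Kyn cut against mock cut tips at 6 h (7.72%). For L-Kyn cut against L-Kyn uncut tips at 6 h it was 1 (17.3%), and for the interaction of cutting and L-Kyn at 6 h it was 0 (2.56%). DESeq2 called 0 in each comparison. The set-matched fit called GA2OX2 and no other member, in 3 comparisons. These were mock cut 3 h against mock uncut tips, L-Kyn cut against mock cut tips at 6 h and L-Kyn cut against L-Kyn uncut tips at 6 h, where 11.3%, 0.112% and 6.72% of 16934 genes were called. The first of these has a single mock uncut library as its control.

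GA2OX2 (AT1G30040), an enzyme that inactivates gibberellins, had its highest levels in L-Kyn cut tips at 6 h. It was at 69.6, 70.8 and 55.4 CPM in L-Kyn cut tips at 6 h, against 9.20 and 7.65 CPM in mock cut tips at 6 h. All 3 L-Kyn libraries lay far above both mock libraries, an order without overlap that 16.4% of all genes tested also had in that direction. The means were 65.3 ± 8.58 and 8.43 ± 1.1 CPM (SD, n = 3 and 2), a 7.75-fold difference (log2 fold change 2.95 ± 0.88 SE) with an edgeR adjusted p of 0.478 in the fit of all 18 libraries and a DESeq2 adjusted p of 0.277, where 0.451% of genes were called. With each of the 18 libraries left out in turn the edgeR adjusted p stayed between 0.161 and 1.00. In the set-matched fit GA2OX2 was 8.06-fold higher (log2 3.01 ± 0.45 SE, edgeR adjusted p = 0.00725), and the adjusted p was 0.00567 with these 2 groups alone (0.274% of genes called) and 0.000974 within set A (0.373%).

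**Figure D1:**
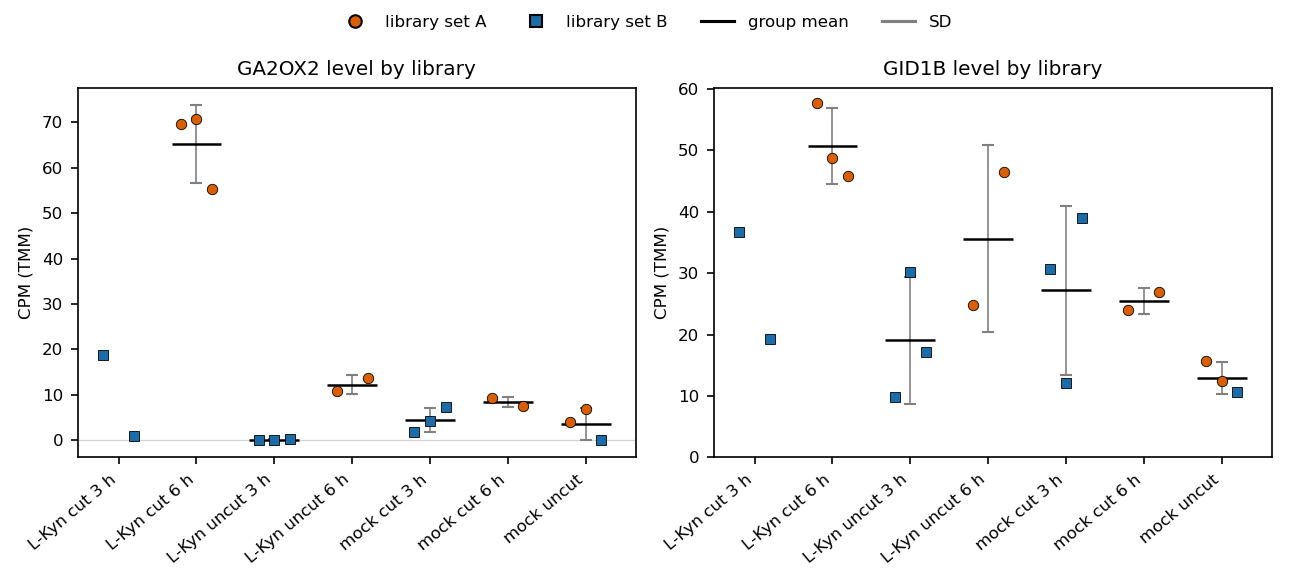
Levels of GA2OX2 (left) and GID1B (right) in CPM with TMM factors, 1 point per library, for the 7 groups, with circles for library set A, squares for set B, a line at the group mean and bars for the SD (neither drawn for L-Kyn cut 3 h). GA2OX2 lies between 55.4 and 70.8 CPM in the L-Kyn cut 6 h group, and at most at 18.9 CPM in any other library, and GID1B has its lowest mean, 12.9 CPM, in mock uncut tips.

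GA2OX2 also stood higher in cut than in uncut tips under L-Kyn. Against the same L-Kyn cut tips at 6 h, L-Kyn uncut tips at 6 h were at 10.8 and 13.8 CPM, and the groups did not overlap (19.1% of genes had that order). The gene was 5.30-fold higher in L-Kyn cut tips (log2 2.41 ± 0.82 SE, edgeR adjusted p = 0.137). The adjusted p was 0.0405 and 0.0388 without L-Kyn cut 3 h replicate 1 or 2, 0.00123 in the set-matched fit and 0.000313 within set A (12% of genes called), with fold changes of 5.33 and 5.36 in these last fits. It was 0.00121 with these 2 groups alone (6.83% of genes called) and 0.216 by DESeq2 (5.12%). Green tissue sums overlapped here, at 308, 192 and 75.5 CPM in L-Kyn cut tips, 508 and 276 CPM in L-Kyn uncut tips and 131 and 308 CPM in mock cut tips at 6 h. The root cap sums at 6 h were 5.33 to 12.6 CPM in L-Kyn cut tips, 188 to 235 CPM in L-Kyn uncut tips and 3.68 to 10.3 CPM in mock cut tips. The stem cell niche sums moved with both contrasts, at 5.96 to 16.7 CPM in L-Kyn cut tips, 50.7 to 55.6 CPM in L-Kyn uncut tips and 21.5 to 23.8 CPM in mock cut tips, with each of the 5 genes detected in every L-Kyn cut and mock cut library at 6 h. Of these 5, PLT1 was called lower in L-Kyn cut than in L-Kyn uncut tips (log2 -5.52) and none was called against mock cut tips. Against L-Kyn uncut tips 4 of the 5 had a negative change and 1 a positive one. The latter was WOX5, not called, at a mean of 2.38 CPM in L-Kyn cut and 0.336 CPM in L-Kyn uncut tips. The 8 genes of differentiating cells summed to 17.4 to 38.7 CPM in L-Kyn cut tips and 4.58 to 12.4 CPM in L-Kyn uncut tips. In mock cut tips at 6 h they summed to 28.8 CPM in replicate 1 and 133 CPM in replicate 2, so these 2 libraries differed in tissue markers. The part of these cells in the GA2OX2 and GID1B values was not tested. In such bulk tissue, fewer cells of a type and less RNA per cell cannot be told apart.

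Mock cut tips and L-Kyn uncut tips, both at 6 h, had GA2OX2 levels between those of L-Kyn cut tips at 6 h and mock uncut tips. Mock cut tips at 6 h, at 9.20 and 7.65 CPM, lay above mock uncut tips at 3.92, 6.90 and 0 CPM (log2 1.28 ± 0.91 SE, edgeR adjusted p = 0.651), as did 17.7% of genes. L-Kyn uncut tips at 6 h, at 10.8 and 13.8 CPM, also lay above mock uncut tips (log2 1.83 ± 0.84 SE, edgeR adjusted p = 0.570), as did 12.2% of genes. The library at 0 CPM is mock uncut replicate 3 of set B. Within set A the log2 differences were 0.64 ± 0.43 and 1.22 ± 0.40 SE (edgeR adjusted p = 0.445 and 0.332). The L-Kyn difference in cut tips exceeded that in uncut tips by 1.13 ± 1.21 SE on the log2 scale, which was not called (edgeR adjusted p = 1.00), and by 1.79 ± 0.54 SE within set A (edgeR adjusted p = 0.706).

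At 3 h GA2OX2 depends on which mock uncut libraries are the control. Mock cut tips held 4, 7 and 13 reads (1.84, 4.21 and 7.23 CPM), against 13, 15 and 0 reads (3.92, 6.90 and 0 CPM) in mock uncut tips, and the groups overlapped (log2 0.34 ± 0.88 SE, edgeR adjusted p = 0.837). Among set B alone, uncut tips were at or near 0, with 0 reads in mock uncut replicate 3 and 0, 0 and 1 read in L-Kyn uncut tips at 3 h. The mean of mock cut tips, 4.43 CPM, was 4.60 times the floor of that mock uncut library, 0.963 CPM. Replicates 1, 2 and 3 of the cut tips were at 1.91, 4.38 and 7.50 times that floor. The edgeR adjusted p was 0.0105 in the set-matched fit, against that single library, and 0.202 within set B alone. Without mock uncut replicate 2 the fitted log2 value was 1.11, and without replicate 3 it was -0.29. L-Kyn cut tips at 3 h had 90 reads (18.9 CPM) in replicate 1 and 5 reads (1.03 CPM) in replicate 2, the library with the root cap sum of 159 CPM, where replicate 1 had 4.61 CPM.

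For L-Kyn alone at 3 h, the 3 L-Kyn uncut libraries held 1 GA2OX2 read in all and the 3 mock uncut libraries 28. The ratio of rates was 0.0318 (95% exact counting interval 0.000778 to 0.192), with an edgeR adjusted p of 0.269. All 28 mock reads came from set A, and the green tissue sums were 14.4, 18.1 and 10.2 CPM in these L-Kyn libraries against 298, 115 and 14.1 CPM in the mock ones. Whether green tissue takes part in the difference was not tested. Without mock uncut replicate 3, the only mock uncut library of set B, the edgeR adjusted p was 0.0228 (log2 -5.19), and L-Kyn then cannot be told apart from the set.

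In order of mean level over the 6 groups other than L-Kyn cut tips at 3 h, GA2OX2 ran from L-Kyn cut tips at 6 h through L-Kyn uncut 6 h (12.3 ± 2.12 CPM), mock cut 6 h (8.43 ± 1.1), mock cut 3 h (4.43 ± 2.70) and mock uncut (3.61 ± 3.46) to L-Kyn uncut 3 h (0.0695 ± 0.120). Neighbours did not overlap down to mock cut tips at 3 h. The nearest libraries were at 10.8 CPM in L-Kyn uncut and 9.20 CPM in mock cut tips at 6 h, and at 7.65 and 7.23 CPM in mock cut tips at 6 h and 3 h. Of all genes tested, 19.1% were likewise higher in all L-Kyn cut than in all L-Kyn uncut libraries at 6 h. For mock cut tips at 6 h over 3 h the share was 18.2%. No share was computed for L-Kyn uncut over mock cut tips at 6 h or for the whole order. The last 3 groups overlapped. L-Kyn cut 3 h replicate 1, at 18.9 CPM, lay above every group but L-Kyn cut tips at 6 h.

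The other inactivating enzymes were near 0 reads. GA2OX6 (AT1G02400) had 16 reads over all 18 libraries and none in 12 of them. Its highest count was 6 reads, in L-Kyn cut 3 h replicate 1, and the 3 L-Kyn cut 6 h libraries, where GA2OX2 was highest, had 0 reads of it (each below its floor of 0.716 to 2.28 CPM). GA2OX8 (AT4G21200), which in Arabidopsis acts on precursors rather than on the bioactive hormone, had 20 reads in all and none in 9 libraries. Of these, 9 reads came from mock uncut replicates 2 and 3, with 5 and 4, and mock cut tips at 3 h had none. The ratio of rates of mock cut 3 h to mock uncut tips was thus 0, with a 95% exact counting interval up to 0.773, and the edgeR adjusted p of GA2OX8 there was 0.167 in a fit with no filter, its lowest over the 8 comparisons. For GA2OX6 the lowest was 0.508 in that fit. Neither gene passed the filter of the fit of all 18 libraries.

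**Figure D2:**
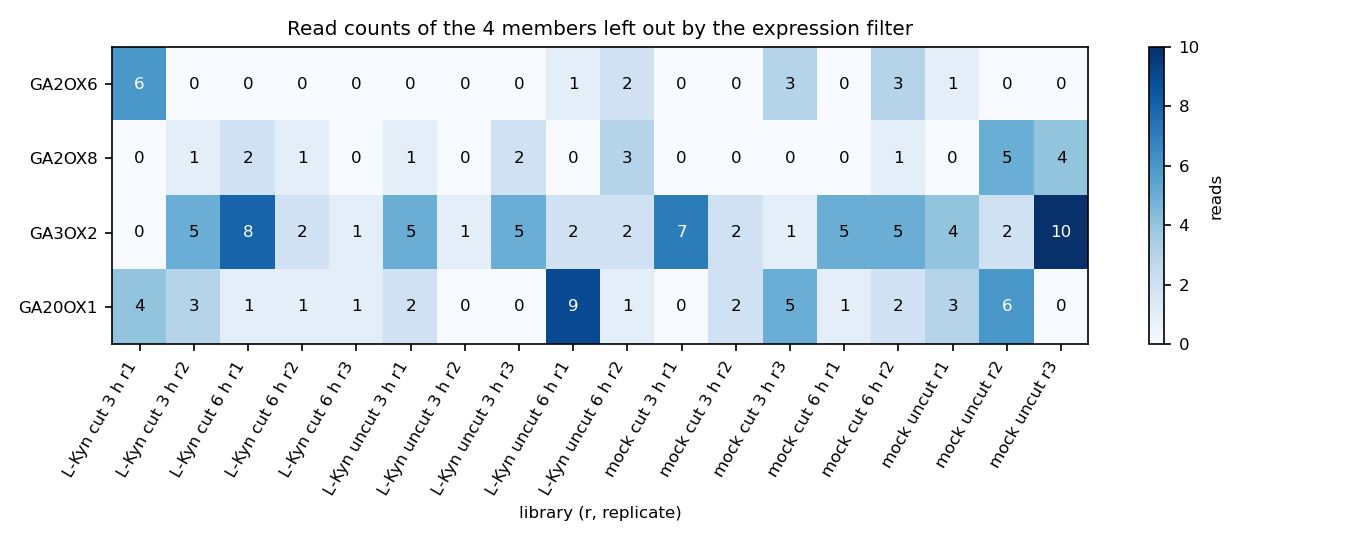
Read counts of GA2OX6, GA2OX8, GA3OX2 and GA20OX1 in each of the 18 libraries (columns, r for replicate), the 4 genes left out by the filter on low counts. No library holds more than 10 reads of any of them, and GA2OX6 is at 0 reads in 12 libraries.

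GID1B (AT3G63010), a gibberellin receptor, had its lowest mean in mock uncut tips and its highest in L-Kyn cut tips at 6 h. It was at 57.7, 48.7 and 45.9 CPM in L-Kyn cut tips at 6 h, against 23.9 and 27.0 CPM in mock cut tips at 6 h. The groups did not overlap, an order that 16.4% of all genes tested also had. The difference was 1.99-fold (log2 1.00 ± 0.48 SE, with an edgeR adjusted p of 0.643, or 0.364 when set-matched). In uncut tips GID1B was at 24.9 and 46.4 CPM with L-Kyn for 6 h, against 15.7, 12.4 and 10.6 CPM in mock. Both L-Kyn libraries were above all 3 mock libraries, as for 12.2% of genes, a 2.76-fold difference (log2 1.46 ± 0.46 SE). The edgeR adjusted p was 0.399, and 0.607 with the set as covariate. Without L-Kyn uncut 6 h replicate 2 the log2 value was 0.95. The L-Kyn difference in cut tips minus that in uncut tips was -0.47 ± 0.66 SE on the log2 scale (edgeR adjusted p = 1.00).

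Without L-Kyn, GID1B was at 30.7, 12.0 and 38.9 CPM in mock cut tips at 3 h, against 15.7, 12.4 and 10.6 CPM in mock uncut tips. The groups overlapped through replicate 2 of the cut tips (log2 1.08 ± 0.43 SE, edgeR adjusted p = 0.114, and 0.0896 by DESeq2). At 6 h the mock cut libraries, at 23.9 and 27.0 CPM, were both above the mock uncut ones, as for 17.7% of genes (log2 0.98 ± 0.48 SE, edgeR adjusted p = 0.518). Under L-Kyn, cut and uncut tips at 6 h overlapped, at 45.9 to 57.7 CPM and 24.9 to 46.4 CPM (log2 0.51 ± 0.46 SE, edgeR adjusted p = 0.609). L-Kyn uncut tips at 3 h were spread over 9.87, 30.2 and 17.1 CPM, and L-Kyn cut tips at 3 h were at 36.7 and 19.3 CPM. By mean level the order of the other 6 groups was L-Kyn cut 6 h (50.8 ± 6.19 CPM), L-Kyn uncut 6 h (35.6 ± 15.2), mock cut 3 h (27.2 ± 13.8), mock cut 6 h (25.5 ± 2.16), L-Kyn uncut 3 h (19.1 ± 10.3) and mock uncut (12.9 ± 2.59), and every pair of neighbours overlapped.

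GID1A (AT3G05120), another receptor of the same family, had another order of group means. Its group means ran from 5.13 ± 3.20 CPM in L-Kyn uncut tips at 6 h (n = 2) to 11.3 ± 4.24 CPM in mock uncut tips (n = 3), with L-Kyn cut tips at 3 h at 6.92 and 8.64 CPM. Neighbours in that order overlapped except mock cut tips at 6 h over L-Kyn uncut tips at 3 h, a pair with no share of all genes computed. L-Kyn cut tips at 6 h were at 8.59, 16.8 and 6.21 CPM, against 7.36 and 10.3 CPM in mock cut tips at 6 h (log2 0.19 ± 0.56 SE, edgeR adjusted p = 0.966). L-Kyn uncut tips at 6 h were at 7.39 and 2.86 CPM, against 6.94, 11.5 and 15.4 CPM in mock uncut tips (log2 -1.14 ± 0.56 SE, edgeR adjusted p = 0.587). These values overlap at the lowest mock library. Whether GID1A and GID1B differ in response was not tested.

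The 3 tested oxidases of synthesis had their highest means in mock cut tips at 6 h among the groups other than L-Kyn cut tips at 3 h. They did not overlap the next group for GA3OX1 and GA20OX3 and overlapped it for GA20OX2. For GA20OX3 the next group was L-Kyn uncut tips at 3 h, and no share of all genes was computed for that order. The 2 mock cut 6 h libraries differed in their differentiating cell sums, 28.8 CPM in replicate 1 and 133 CPM in replicate 2. The part of these cells in the oxidase values was not tested. GA3OX1 (AT1G15550), an enzyme of the last step, was at 13.5 and 14.4 CPM in mock cut tips at 6 h, against 6.34, 7.82 and 7.06 CPM in mock uncut tips. Each cut library was above all uncut ones, as for 17.7% of genes (log2 0.98 ± 0.55 SE, edgeR adjusted p = 0.560). Mock cut tips at 3 h were at 9.64, 2.41 and 5.56 CPM, below both 6 h libraries (18.2% of genes were higher in all 6 h libraries), with a log2 difference of 1.22 ± 0.57 SE between 6 h and 3 h (edgeR adjusted p = 0.392). With L-Kyn the gene was at 10.5, 4.57 and 7.17 CPM in cut tips at 6 h, below both mock cut libraries (19% of genes had that order), a log2 difference of -0.86 ± 0.56 SE (edgeR adjusted p = 0.764). In uncut tips at 6 h it was at 5.71 and 2.29 CPM with L-Kyn, below the 3 mock libraries as 11.4% of genes were (log2 -0.83 ± 0.60 SE, edgeR adjusted p = 0.705). At 3 h the L-Kyn uncut libraries, at 6.77, 8.31 and 6.47 CPM, overlapped the mock uncut ones (log2 0.00 ± 0.52 SE).

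GA20OX3 (AT5G07200), an oxidase of gibberellin precursors, was at 14.1 and 21.6 CPM in mock cut tips at 6 h, against 5.05, 7.22 and 1.67 CPM in mock cut tips at 3 h. The 6 h libraries were all higher, as for 18.2% of genes, a 3.85-fold difference (log2 1.95 ± 0.66 SE, edgeR adjusted p = 0.202). Against mock uncut tips, at 8.75, 4.14 and 11.9 CPM, the 6 h libraries were also higher, as for 17.7% of genes (log2 1.1 ± 0.61 SE, edgeR adjusted p = 0.557). The 3 h libraries overlapped the mock uncut ones (log2 -0.85 ± 0.61 SE, edgeR adjusted p = 0.387). L-Kyn cut tips at 6 h were at 8.83, 5.33 and 6.69 CPM, all below the mock cut tips of that hour, as for 19% of genes (log2 -1.32 ± 0.63 SE, edgeR adjusted p = 0.638). In uncut tips the L-Kyn libraries overlapped the mock ones, at 9.58, 12.8 and 11.5 CPM for 3 h and 12.4 and 2.86 CPM for 6 h. L-Kyn cut tips at 3 h were at 3.77 CPM in replicate 1 and 14.2 CPM in replicate 2.

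**Figure D3:**
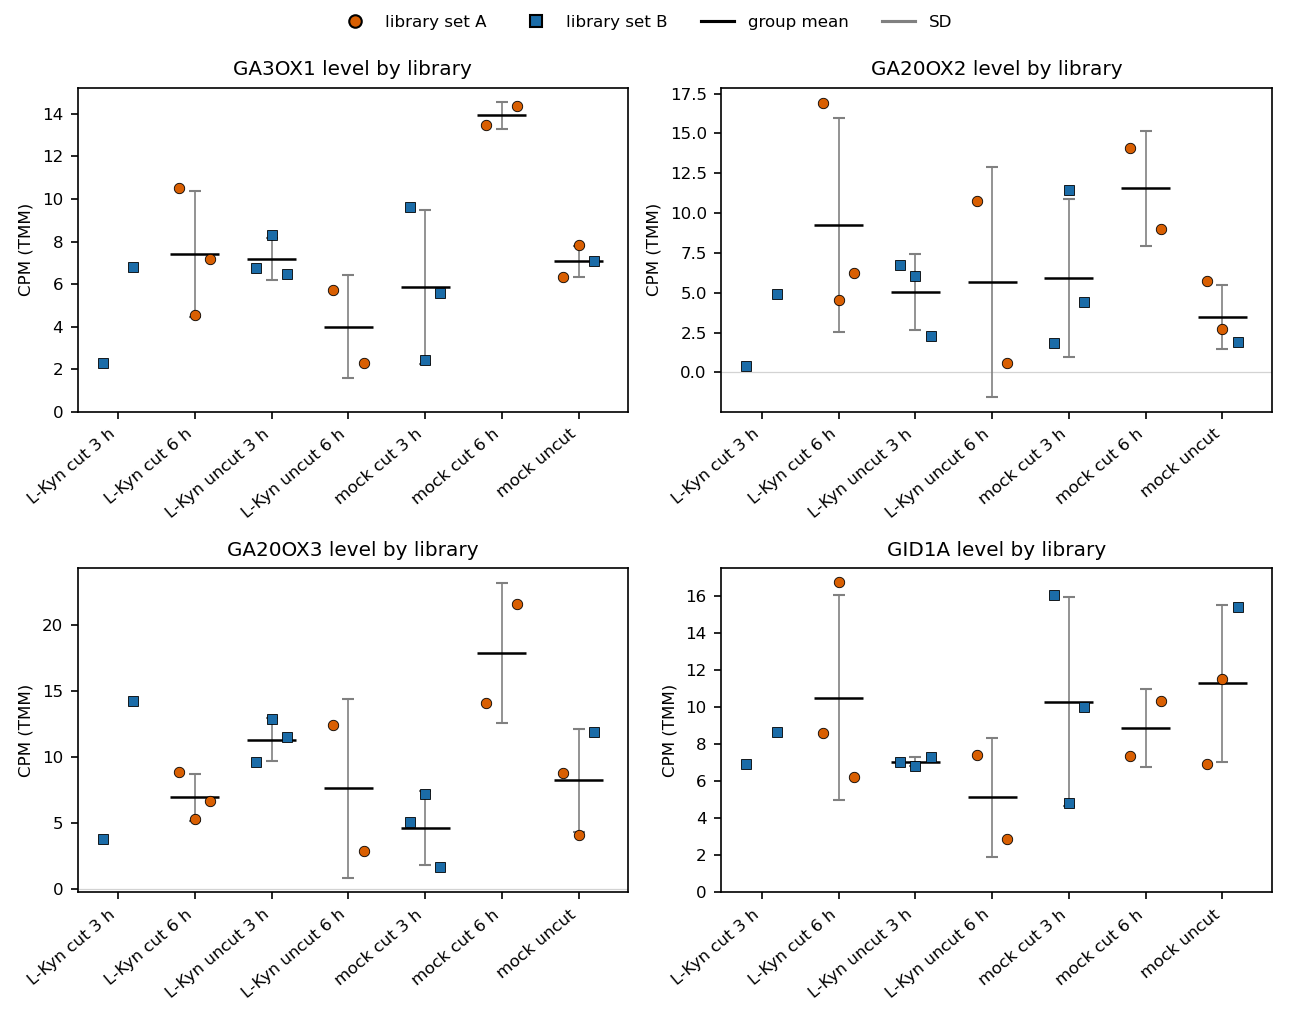
Levels of GA3OX1, GA20OX2, GA20OX3 and GID1A in CPM with TMM factors, 1 point per library, for the 7 groups, with circles for library set A, squares for set B, a line at the group mean and bars for the SD (neither drawn for L-Kyn cut 3 h). Both mock cut 6 h libraries of GA3OX1, at 13.5 and 14.4 CPM, lie above every other library of that gene, and GID1A has its highest mean, 11.3 CPM, in mock uncut tips.

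GA20OX2 (AT5G51810), of the same enzyme family, had libraries far apart within most groups. It was at 16.9, 4.57 and 6.21 CPM in L-Kyn cut tips of 6 h, against 14.1 and 9.0 CPM in mock cut tips at 6 h (log2 -0.24 ± 0.90 SE, edgeR adjusted p = 0.976). Mock cut tips at 6 h were above the mock uncut libraries, at 5.74, 2.76 and 1.93 CPM (log2 1.69 ± 0.94 SE, edgeR adjusted p = 0.555). L-Kyn uncut tips at 6 h were at 10.8 and 0.573 CPM, on both sides of the mock uncut range. Mock cut tips at 3 h were at 1.84, 11.4 and 4.45 CPM and L-Kyn uncut tips at 3 h at 6.77, 6.05 and 2.29 CPM, both overlapping mock uncut tips. The 5 members whose mock cut 6 h libraries all lay above the mock uncut ones were GA2OX2, GA3OX1, GA20OX2, GA20OX3 and GID1B, so that genes of inactivation, synthesis and reception were among them. They were compared with the same mock uncut libraries, and 17.7% of all genes had that order.

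The remaining oxidases of synthesis were near 0 reads. GA20OX1 (AT4G25420), known in Arabidopsis for the dwarf mutant ga5, had 41 reads in all, with 9 reads in L-Kyn uncut 6 h replicate 1 as its highest count and 0 in 4 libraries. GA3OX2 (AT1G80340), an enzyme of the last step like GA3OX1, had 67 reads in all, between 0 and 10 per library, and more than 3 reads in 9 libraries. Its mean was 2.66 ± 0.58 CPM in mock cut tips at 6 h (n = 2) and 1.78 ± 1.25 CPM in mock uncut tips (n = 3). Neither gene passed the filter of the fit of all 18 libraries. In a fit with no filter the lowest edgeR adjusted p over the 8 comparisons was 0.601 for GA20OX1 and 0.734 for GA3OX2. GA3OX2 passed the filter within set B, where the edgeR adjusted p was 0.747 for mock cut 3 h tips (log2 -0.92 ± 1.42 SE) and 0.822 for L-Kyn uncut 3 h tips (log2 -1.49 ± 1.40 SE) against mock uncut replicate 3.

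**Figure D4:**
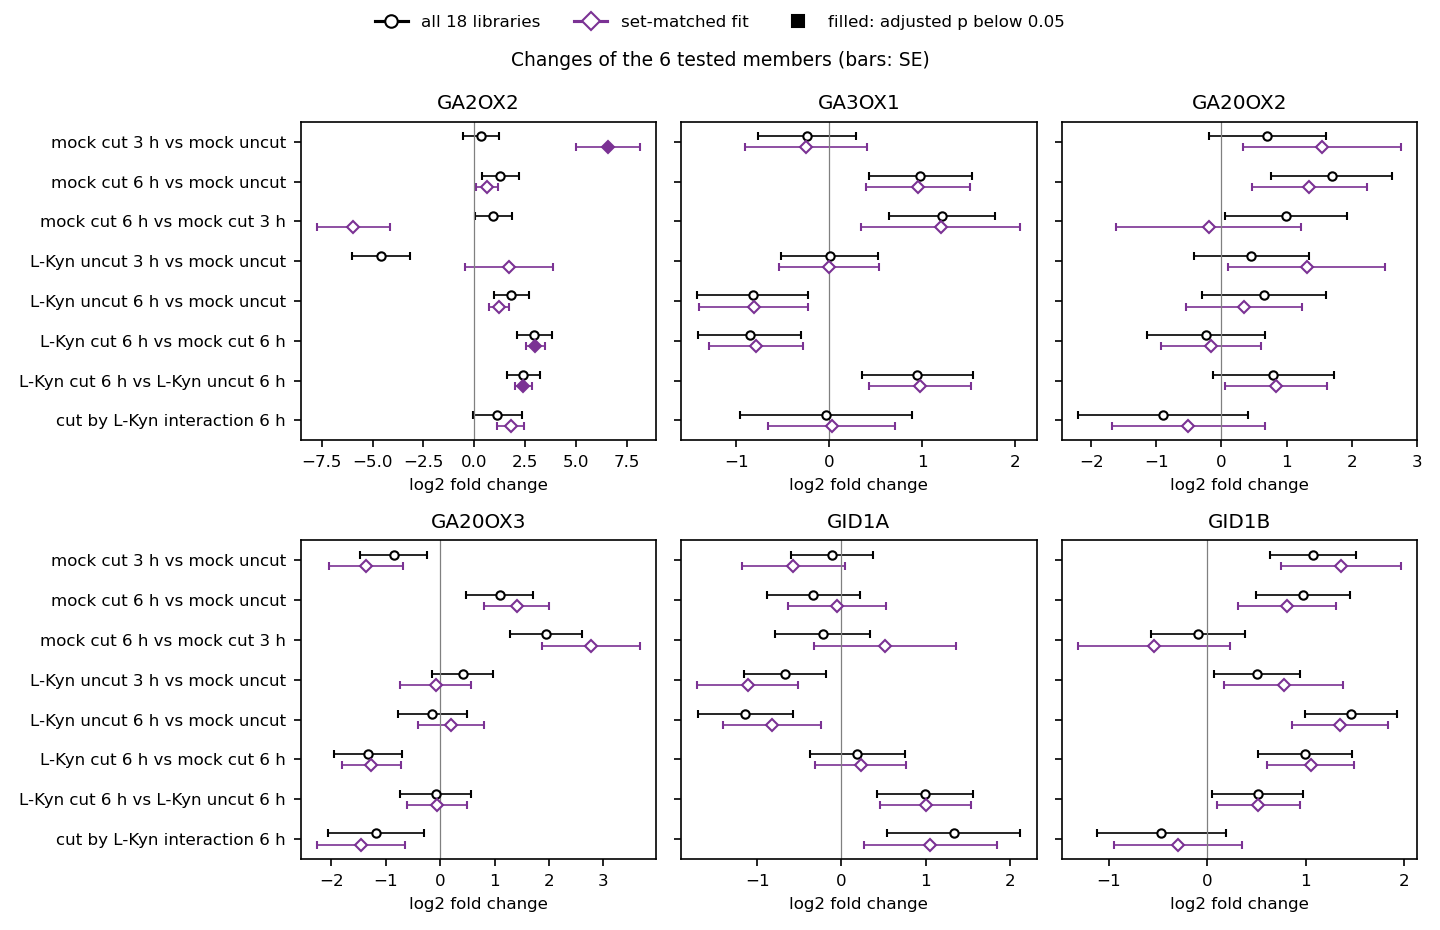
Log2 fold changes with SE bars of the 6 tested genes in 8 comparisons, with circles for the fit of all 18 libraries, diamonds for the set-matched fit and filled symbols for an edgeR adjusted p below 0.05. Only GA2OX2 has filled symbols, at 3.01 for L-Kyn cut against mock cut tips at 6 h, at 2.41 for L-Kyn cut against L-Kyn uncut tips at 6 h, and for mock cut tips at 3 h, where the control is 1 library at 0 reads.

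Other genes of the pathway were taken from a list of 31, of which 22 are in the table and 17 were tested. In mock cut tips at 3 h against mock uncut tips, 5 of the 17 fell and 0 rose in edgeR's test, with a median log2 fold change of -1.26, against -0.02 over all genes. Of all genes tested, 5.9% fell in that comparison. In the same comparison the 6 tested members had a median of 0.11. DESeq2, which called 7.76% of genes lower, called the same 5, as did the fit with no filter, of 22. RLE factors gave 4 of 17, the replicate block 3 of 17 and the stricter filter 3 of 15, with no share of all genes computed for these. The share of all genes called lower differed between fits and was 0.939% with these 2 groups alone. Counts from unlike fits are therefore not compared with each other. The count was 2 of 16 in the set-matched fit (GA3 and RGL3), 1 of 15 with these 2 groups alone (RGL3) and 0 of 17 within set B, and the set-matched and set B fits have mock uncut replicate 3 as their only control.

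RGL3 (AT5G17490), a DELLA protein gene, was at 5.51, 5.42 and 5.0 CPM in mock cut tips at 3 h, against 22.0, 16.6 and 35.3 CPM in mock uncut tips. The groups did not overlap, with all cut libraries lower, as for 12.5% of all genes. RGL3 fell 4.63-fold (log2 -2.21 ± 0.60 SE), with an edgeR adjusted p of 0.0266. Set-matched, the adjusted p was 0.000891, but the control is then mock uncut replicate 3 alone, the highest of the 3 at 35.3 CPM. RGL3 missed the threshold when any mock cut 3 h library was left out (edgeR adjusted p = 0.0786, 0.0703 and 0.0508 for leaving out replicates 1, 2 and 3) and within set B (0.127). At 6 h the mock cut libraries were at 3.68 and 4.95 CPM (log2 -2.49 ± 0.71 SE, edgeR adjusted p = 0.316 in the fit of all 18 libraries). In the set-matched fit, where 0.549% of genes were called, RGL3 was called lower there (log2 -2.17 ± 0.49 SE, edgeR adjusted p = 0.0423). That fit also called it lower in L-Kyn cut against L-Kyn uncut tips at 6 h (log2 -2.05 ± 0.40 SE, edgeR adjusted p = 0.00331, with 6.72% of genes called). The fit of all 18 libraries did not. L-Kyn cut 3 h replicate 1 was at 2.52 CPM and replicate 2 at 26.8 CPM. Root cap sums moved with the cut as well, at 3.01 to 11.0 CPM in mock cut tips at 3 h, against 44.1 to 264 CPM in mock uncut tips, with 3 of 4 genes called lower. Green tissue sums were 7.78 to 9.64 CPM in mock cut tips at 3 h, against 14.1 to 298 CPM in mock uncut tips, with 7 of 7 genes called lower (median log2 -6.24). These sums followed the library set. Mock uncut replicate 3, of set B, was at 14.1 CPM, and mock cut tips at 6 h, of set A, were at 131 and 308 CPM. The stem cell niche sums overlapped, at 36.1 to 56.0 CPM in mock cut tips at 3 h, against 53.3 to 60.1 CPM in mock uncut tips, and these genes went both ways, WOX5 called higher (log2 3.94) and PLT1 lower (log2 -4.67) of 5. The part of these cells in the fall of RGL3 and the next genes was not tested.

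GA3 (AT5G25900), the ent-kaurene oxidase of early gibberellin synthesis, was at 5.97, 10.2 and 6.67 CPM in mock cut tips at 3 h, against 19.3, 12.9 and 59.4 CPM in mock uncut tips. All cut libraries were lower, as for 12.5% of all genes, and GA3 fell 4.05-fold (log2 -2.02 ± 0.58 SE), with an edgeR adjusted p of 0.0353. The fold rests on mock uncut replicate 3, at 59.4 CPM, which is also the only control behind the set-matched adjusted p of 0.000142. GA3 missed the threshold with mock cut 3 h replicates 1, 2 and 3 and mock uncut replicate 3 left out in turn (edgeR adjusted p = 0.117, 0.0639, 0.0688 and 0.164, with a log2 value of -1.1 in the last), with the 2 groups alone (0.115), with a replicate block (0.0549) and within set B (0.118).

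GID1C (AT5G27320), the receptor gene of the family outside the list of 10, had 1 read in the 3 mock cut libraries at 3 h, against 25 reads in the 3 mock uncut libraries. The ratio of rates was 0.0610 (95% exact counting interval 0.00149 to 0.373), and edgeR called it lower (adjusted p = 0.0285). Its level was 3.68 and 4.05 CPM in mock cut tips at 6 h. GID1C missed the threshold with mock cut 3 h replicates 2 and 3 and mock uncut replicate 2 left out in turn (edgeR adjusted p = 0.0740, 0.0565 and 0.0592) and within set B (0.141). Its fitted log2 value of -3.76 was -6.1 without mock cut 3 h replicate 1, it passed the filter in 9 of the 18 fits with a library left out, and GID1C did not pass the filter of the set-matched fit. GID1B, from the same receptor family, averaged 27.2 CPM in these cut tips, against 12.9 CPM in mock uncut tips.

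**Figure D5:**
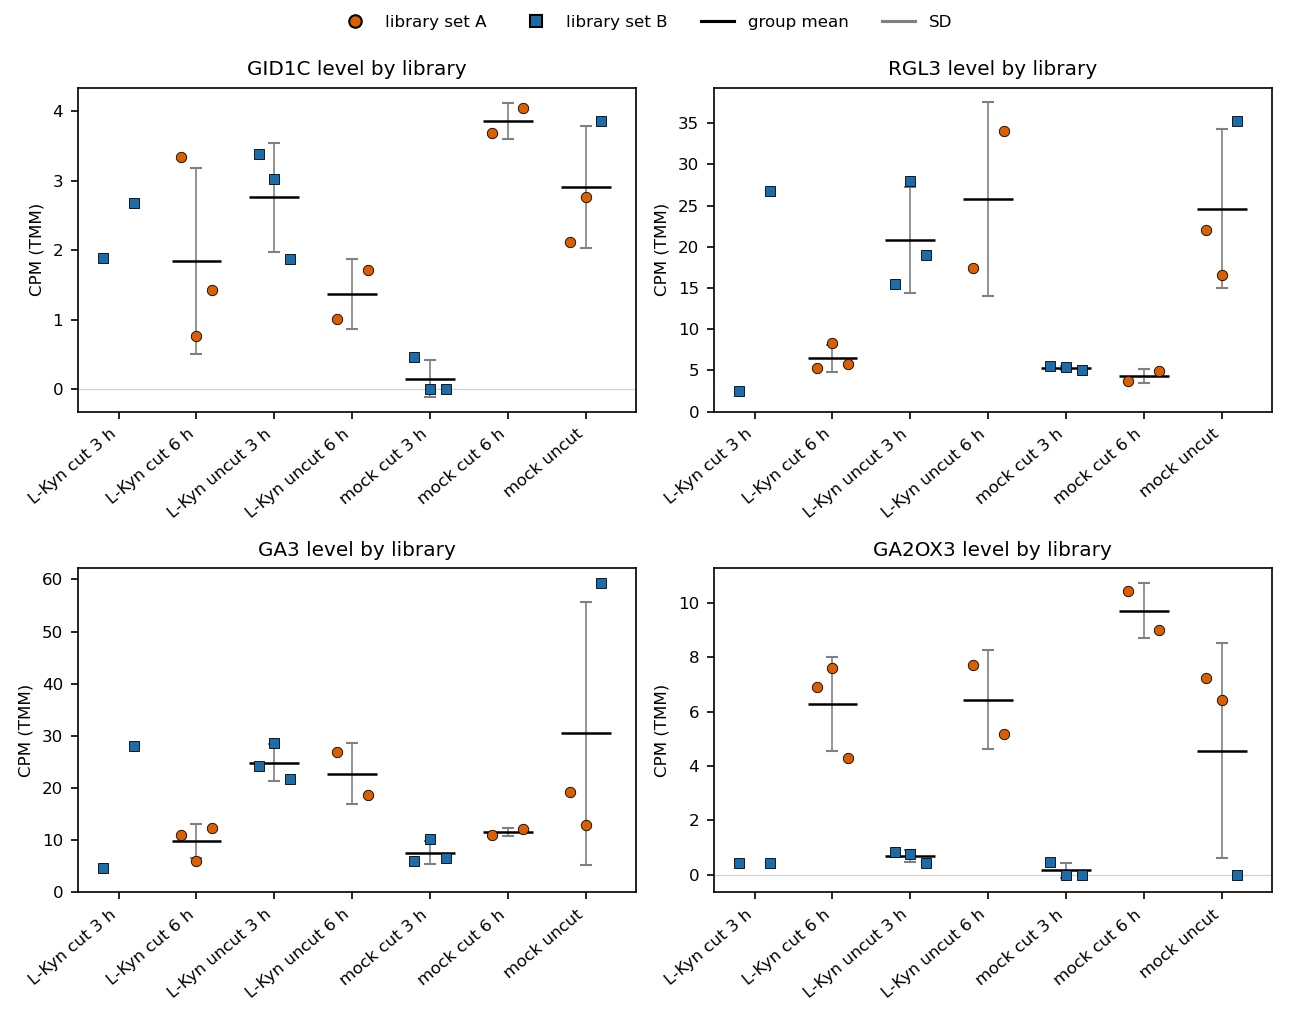
Levels of GID1C, RGL3, GA3 and GA2OX3, gibberellin genes outside the list of 10, in CPM with TMM factors, 1 point per library, with circles for library set A, squares for set B, a line at the group mean and bars for the SD (neither drawn for L-Kyn cut 3 h). RGL3 lies at 5.0 to 5.51 CPM in mock cut tips at 3 h and at 16.6 to 35.3 CPM in mock uncut tips, and GA2OX3 is at most at 0.846 CPM in every set B library.

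GA2OX3 (AT2G34555), an inactivating oxidase, followed the library set. It had 1 read in the mock cut libraries at 3 h, against 24, 14 and 0 reads in mock uncut replicates 1, 2 and 3, and was called lower (edgeR adjusted p = 0.0305, ratio of rates 0.0401 with a 95% exact counting interval of 0.000991 to 0.238). It was called higher in mock cut tips at 6 h, with 17 and 20 reads, than at 3 h (edgeR adjusted p = 0.0435), 1 of the 17 tested genes against 0.575% of all genes higher there. Every set B library held 0 to 3 reads, in the same libraries whose green tissue sums were 6.08 to 18.1 CPM, and the set-matched fit called neither difference (edgeR adjusted p = 0.571 and 0.700). The first call was also lost without any one of mock cut 3 h replicates 1, 2 and 3 and mock uncut replicates 1 and 2 (edgeR adjusted p = 0.0615, 0.0844, 0.0635, 0.0963 and 0.0802), and the second without any one of 13 of the 18 libraries (0.0565 to 0.235). The fitted log2 value of the first was -4.38, which moved to -6.72 with mock cut 3 h replicate 1 left out and to -4.98 with mock uncut replicate 3 left out. That of the second was 5.48, which moved to 7.82 with mock cut 3 h replicate 1 left out. The fifth gene, CYP714A1 (AT5G24910), a cytochrome P450 of gibberellin inactivation named after its values were seen, was at 0, 1.2 and 2.22 CPM in mock cut tips at 3 h, against 5.13, 8.28 and 5.78 CPM in mock uncut tips. It was called at an edgeR adjusted p of 0.0490, which was 0.112 in the set-matched fit and above 0.05 without any one of 13 of the 18 libraries (0.0533 to 0.164). Its log2 value of -2.50 was -1.85 without mock cut 3 h replicate 1 and -3.48 without replicate 3.

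In the other 6 comparisons edgeR called 0 of these 17 genes in the fit of all 18 libraries, and the numbers at an unadjusted p under 0.05 were 3 for mock cut 6 h against mock uncut tips (9.75% of all genes), 1 for each of the 3 L-Kyn comparisons with mock tips (7.72% to 9.05%) and for the interaction (2.56%), and 4 for L-Kyn cut against L-Kyn uncut tips at 6 h (17.3%). In the last of these DESeq2 (5.12% of genes called), the set-matched fit (6.72%) and the fit of the 2 groups alone (6.83%) called CYP714A1 higher and RGL3 lower. Within set A (12%) these 2 were called as well, and GA2 and GA3 of early synthesis were called lower, 4 of 16 genes in all. GA2 was named after its values were seen. DESeq2 called 0 of the 17 in the other 5 comparisons. Of 9 GASA genes, small peptide genes of which several respond to gibberellin, 6 are in the table and 3 were tested. GASA14 (AT5G14920) fell in mock cut tips at 3 h, at 0, 4.82 and 0.556 CPM, against 17.8, 4.60 and 16.1 CPM in mock uncut tips (log2 -2.95 ± 0.92 SE, edgeR adjusted p = 0.0464). Mock uncut replicate 2, at 4.60 CPM, overlapped the cut tips, and against mock uncut replicate 3 alone, at 16.1 CPM, the adjusted p was 0.0135 when set-matched and 0.181 within set B. The call in all 18 libraries was lost without any one of 14 of the 18 libraries (edgeR adjusted p = 0.0540 to 0.161), and the log2 value was -5.47 without mock cut 3 h replicate 2 and -2.29 without replicate 1. The set-matched fit also called GASA1 higher in L-Kyn cut than in L-Kyn uncut tips at 6 h (edgeR adjusted p = 0.0425). The fits of these 2 groups alone and within set A called it too. DESeq2 called GASA4 lower in L-Kyn cut than in mock cut tips at 6 h (adjusted p = 0.0471). Both were named after their values were seen.

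For each tested member, the genes with the most similar levels were found among 7145 genes with a symbol, by Pearson correlation of log2 CPM over the 18 libraries, which share groups and sets. For GA2OX2 these included the membrane-bound NAC factor gene NTM1 (AT4G01540, r = 0.922), and for GID1B they were the microtubule gene SP1L3 (AT3G02180, r = 0.869) and the transporter gene ABCA7 (AT3G47780, r = 0.865). The oxidases of synthesis and GID1A had lower values. GA20OX3 came nearest to AXR1 (r = 0.808), of the auxin response, and the GRAS factor gene HAM2 (r = 0.781), GA20OX2 to the isocitrate lyase gene ICL (r = 0.769) and AGP25 (r = 0.712), GA3OX1 to LysoPL2 (r = 0.751) and TIFY8 (r = 0.735), and GID1A to VAMP725 (r = 0.767) and the histone chaperone gene HIRA (r = 0.715). These are the highest of many correlations and are given as descriptions.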

How the data were processed

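The authors deposited raw read counts for each locus. Per the submitters' processing notes, the tools were Bowtie2, HTSeq and DESeq2 and the genome build TAIR10, named with no version and no role. Besides the 22093 loci the table holds 3 lines that name no gene (46.4% to 83.2%, 3.75% to 15.1% and 0.0918% to 0.329% of a library's total for low alignment quality, no feature and ambiguous reads), left out of library sizes and tests. The counting's strand setting is not given in the sources used here. Symbols came from a RefSeq table of assembly TAIR10.1, and no coordinates were used as that build's name differs.

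Counts were fitted with edgeR 4.0.16 (limma 3.58.1, R 4.3.3) by quasi-likelihood, with a mean per group for all 18 libraries, TMM factors, filterByExpr by group (16354 genes) and Benjamini-Hochberg adjustment over all genes of a comparison. CPM use reads on genes and the TMM factors of that fit. Likeness used log2 CPM with a prior count of 2. The fit was tested on simulated data. Alternatives were RLE factors, DESeq2 1.42.0, no filter, a mean of at least 5 CPM, the replicate number as a block, fits of only the groups compared, a set-matched fit (16934 genes) and each library left out. Fits within set A or B were added after seeing the data. L-Kyn cut tips at 3 h enter the fit and were given no comparison of their own. The set term rests on mock uncut tips, replicate 3 against 1 and 2. Members and lists were chosen with earlier results of these data known. All 10 members are named, other pathway and GASA genes where called (at most 4 per comparison by adjusted p), and the 2 most similar genes of each tested member, of which 1 is not reported here. Figures used Python 3.11.15 with matplotlib 3.10.9.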

Additional observations from a re-analysis of the deposited data

Results flagged for a closer look

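GID1B in L-Kyn cut tips at 3 h, a group used in no comparison, was at 36.7 and 19.3 CPM, and the lower of these lies above the highest of the mock uncut libraries, which were at 15.7, 12.4 and 10.6 CPM. The lower value belongs to replicate 2, the library whose root cap sum of 159 CPM goes against its label. The difference was not tested, and the share of all genes with that order was not computed. L-Kyn uncut tips at 3 h overlapped mock uncut tips in this gene, at 9.87, 30.2 and 17.1 CPM.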

How the results depend on the processing

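The number of members called by edgeR was 0 in all 8 comparisons in the fit of all 18 libraries, and 0 again with RLE factors, DESeq2, no filter, the stricter filter and the replicate block. The set-matched fit called 1 member, GA2OX2, in mock cut 3 h against mock uncut tips, in L-Kyn cut against mock cut tips at 6 h and in L-Kyn cut against L-Kyn uncut tips at 6 h. With only the groups compared, and within set A, the count was 1 in each of the last 2 comparisons, again GA2OX2. With 1 library left out the count ranged from 0 to 1 for L-Kyn uncut 3 h against mock uncut tips and for L-Kyn cut against L-Kyn uncut tips at 6 h, and from 0 to 0 in the other 6. The cause was not tested.

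The log2 value of GA2OX2 changed sign in mock cut 3 h against mock uncut tips (-0.23 with mock cut 3 h replicate 3 left out and -0.29 with mock uncut replicate 3 left out, in a range of -0.29 to 1.11 over all libraries left out in turn), in mock cut 6 h against 3 h tips (-5.95 in the set-matched fit) and in L-Kyn uncut 3 h against mock uncut tips (1.70 in the set-matched fit, 1.81 within set B). That of GA2OX3 changed sign in the set-matched fit, to 2.27 for mock cut 3 h against mock uncut tips and -1.81 for mock cut 6 h against 3 h tips. The set-matched and set B values given here against mock uncut tips set libraries at or near 0 reads against each other. The sizes of those values thus depend on the prior count. The set-matched values of mock cut 6 h against 3 h tips take in the set term. That term rests on mock uncut replicate 3, with 0 reads of either gene, against replicates 1 and 2. Of the member changes recomputed under these alternatives (members without overlap or called in some fit), 474 kept their sign and their side of the threshold, 10 gained a call and 5 changed sign. All 70 group means stayed within 1 SD without TMM factors. The factors were 0.905 to 1.04, so these means could hardly move and the check says little.

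Replicate numbers are shared between groups, but same-numbered libraries did not deviate together (correlations of -0.25 to 0.13 over 16 pairs, 1 of them over 0.1), so the replicate block joins libraries that share only a number. Without mock uncut replicate 3, the GA2OX2 log2 value was 0.66 in mock cut 6 h and 1.21 in L-Kyn uncut 6 h against mock uncut tips. GA2OX6, GA2OX8, GA3OX2 and GA20OX1, where 3 reads are worth up to 2.28 CPM, entered the fit with no filter (edgeR adjusted p of 0.167 or more), and GA3OX2 also passed the filter within set B.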
